A study of Mus musculus with 2 samples.

Results

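The genes described here are 41 mouse immediate early and MAPK feedback genes. They were chosen by name for their known roles, with earlier results of these data known. They comprise the AP-1, Egr, Nr4a and Klf transcription factors, other rapidly induced regulators, and the phosphatases and inhibitor proteins that restrain MAP kinase signalling. All 41 had a row among the 52329 gene symbols of the deposited expression table. They were measured in 2 RNA-seq libraries of tumour-derived primary pericytes of the C57BL/6 strain, 1 library from Cd248 null cells (labelled as knockout) and 1 from Cd248 heterozygous cells. Both came from cells sorted by flow cytometry, kept on gelatin-coated plates and described as passages 10 to 12. Pericytes are the mural cells that wrap small vessels, and Cd248 (endosialin) encodes a transmembrane lectin of such cells and of stromal fibroblasts. No wild type was analysed here, so cells with 1 altered Cd248 allele served as the control. The sorting markers, the tumour model, any medium change before harvest and the number of mice behind each culture are not stated in the sources used here.

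Growth factors, serum and stress activate the ERK, JNK and p38 kinases, which within minutes induce immediate early genes from promoters that need no new protein synthesis. Many of these genes encode transcription factors, and the Fos and Jun proteins pair to form AP-1. Their mRNAs are short-lived, so their level follows the recent state of signalling in the culture. A later part of the same response encodes its own brakes: dual-specificity phosphatases that dephosphorylate MAP kinases, Sprouty and Spred proteins that act at the level of Ras and Raf, and Errfi1, which inhibits ErbB receptors.

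Each genotype had 1 library, so there was no measure of spread between cultures or animals, no test was possible and no p-value is given. The values are FPKM (fragments per kilobase of transcript, scaled to the library total). Every value above 0 in the table, apart from 3 gene IDs, could be turned back into whole reads, and the library totals were 19786203 reads in null and 23982269 in heterozygous cells. The intervals below are exact 95% intervals from these reads. They cover counting error only and say nothing of how far repeat cultures would differ. Cd248 itself had 3 reads in null cells and 1288 in heterozygous cells, FPKM values of 0.0592 in null and 20.98 in heterozygous cells, a 354-fold difference with a counting interval of 121 to 1720. The columns carry codes in place of titles, and their reading as null and heterozygote goes with this level of Cd248. In bulk RNA, a difference in the share of a cell type and a difference in RNA per cell cannot be told apart.

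The labelled cell type had uneven support. Of 11 pericyte and mural markers, 5 were under an FPKM of 1 in null and 6 in heterozygous cells, among them Rgs5 (0.377 in null and 0.0173 in heterozygous cells), and Abcc9 was listed at 0 in both. The 11 summed to an FPKM of 798.5 in null and 1414 in heterozygous cells, most of it from Acta2, smooth muscle actin. Pdgfrb, the growth factor receptor of mural cells, stood at 57.3 in null cells and 8.25 in heterozygous cells. Mesothelial markers separated the libraries. Of 9 such genes, 8 were compared and all 8 were lower in null cells by 2-fold or more (beside 6.88% of all genes). The summed FPKM of the 9 was 17.5 in null against 1182 in heterozygous cells. The mesothelial markers Krt8, Lrrn4 and Muc16 were listed at 0 in the null library. The 9 fibroblast markers summed to 5812 in null and 3451 in heterozygous cells, most of it from Col1a1 and Col1a2. Of 8 compared, 3 were at least 2-fold higher (beside 6.84% of all genes), namely Col1a2, Thy1 and Ly6a. Another 4 were lower (beside 6.88%), namely Pdgfra, Dcn, Fap and Cd34, and the median log2 ratio was -0.30. The 8 epithelial markers summed to 2.90 in null and 15.5 in heterozygous cells, with Epcam and Cldn4 at 0 in both. Krt7 gave 0.555 in null and 13.6 in heterozygous cells, and Muc1 2.26 in null and 0.544 in heterozygous cells. The 8 endothelial markers summed to 2.31 in null and 88.5 in heterozygous cells. Of these, Esam gave 0.201 in null and 64.0 in heterozygous cells, and Flt4 1.55 in null and 23.5 in heterozygous cells. Pecam1, Cdh5, Kdr, Tek and Vwf were under an FPKM of 1 in both, and Tie1 was at 0 in both. The 6 Schwann cell markers summed to 5.16 in null cells and 36.2 in heterozygous cells, and the 7 myeloid markers to 24.3 in null and 16.4 in heterozygous cells, with Adgre1 and Itgam at 0 in both. The 7 lymphocyte markers were at or near 0. The part that these differences play in the values below was not tested.

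The module as a whole was expressed at a similar level in both libraries. Of the 41 genes, 40 had 1 FPKM or more in either library and were compared on the scale of log2((null FPKM + 1)/(heterozygote FPKM + 1)). On it, 1 gene, Egr2, was higher in null cells by 2-fold or more (2.5% of members, against 6.84% of all 12773 genes compared). Another 4 were at least 2-fold lower, namely Dusp1, Dusp6, Dusp14 and Spry1 (10% of members, against 6.88% of all genes). The remaining 35, or 87.5%, lay within 2-fold, as did 86.3% of all genes, so the members' counts past 2-fold are near the background. With the columns scaled to an equal sum, Dusp1 and Dusp6 came inside the 2-fold mark and Errfi1 passed it upward. With a pseudocount of 5, only Dusp14 and Spry1 were past it.

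At a mark of 1.5-fold, 8 members were higher (20%, against 15.8% of all genes) and 11 lower (27.5%, against 12.9%). At 4-fold no member was past the mark in either direction, against 1.41% of all genes higher and 2.22% lower. The median log2 ratio of the members was 0.13 and that of all genes 0.03, and the median size of the ratio without its sign was 0.49 for the members and 0.34 for all genes. The summed FPKM of the 41 genes was 1854 in null and 1778 in heterozygous cells. With 1 culture per genotype, a difference of genotype and a difference between cultures cannot be told apart.

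**Figure D1:**
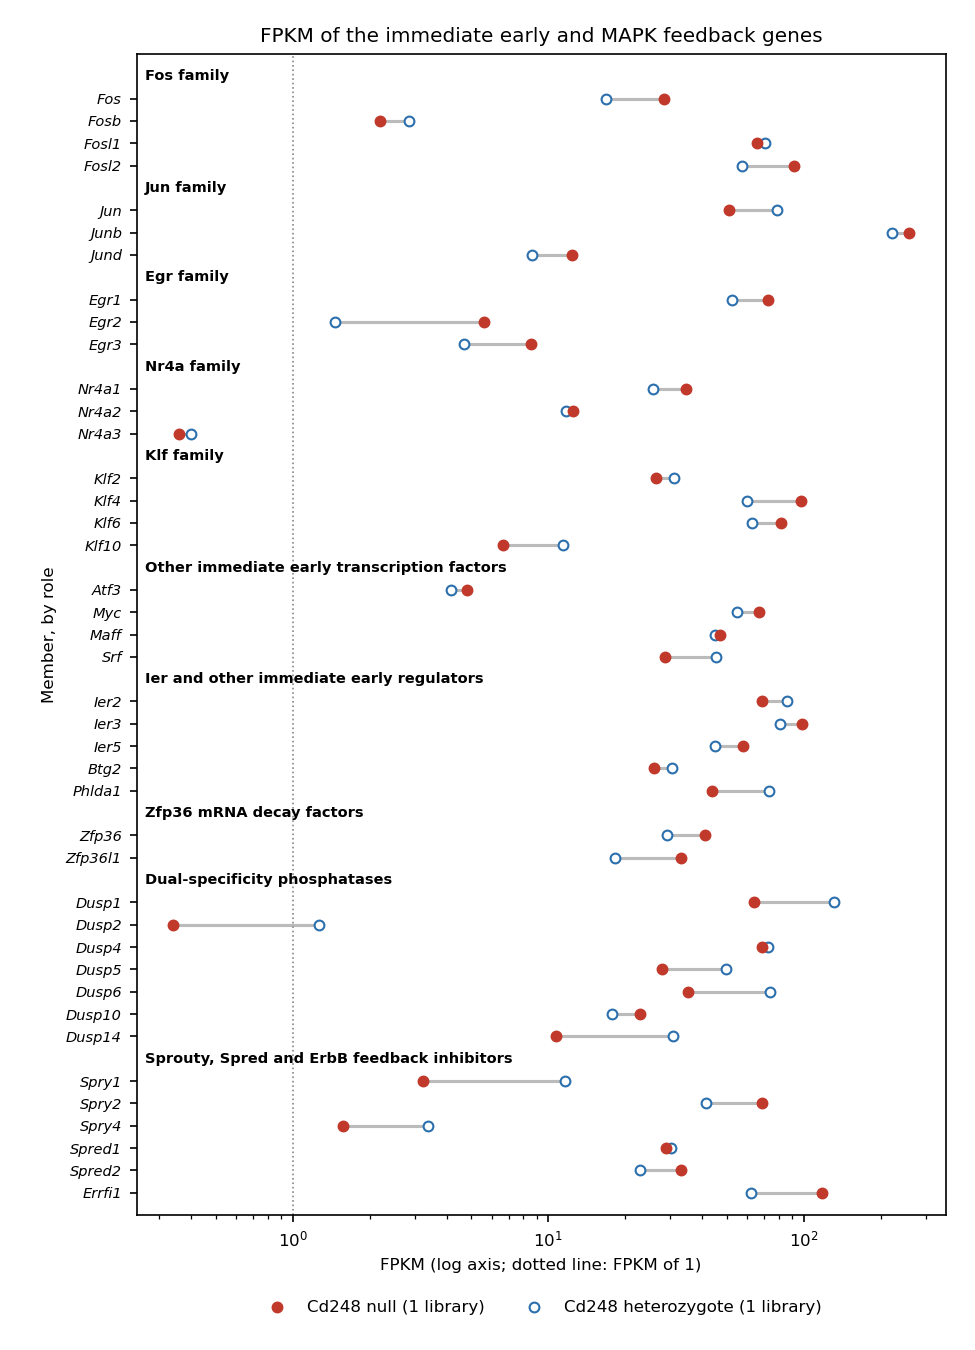
FPKM (log axis) of each of the 41 members in the null library (filled points) and the heterozygote library (open points), 1 library each, grouped by role, with a dotted line at an FPKM of 1. Junb has the highest level in both, 258 in null and 222 in heterozygous cells, and Nr4a3 and Dusp2 lie lowest.

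To show the regulatory sequence that such genes carry, the 250 bases before each annotated start were searched in the RefSeq promoter table of GRCm38.p6, which held 32 of the 41 genes. Below are stretches of this kind from the member that was at least 2-fold higher and from a pair of those that were lower, printed 5′ to 3′ on the gene's strand and cut where an annotated exon begins. Capitals mark a match to the CArG box, the element bound by serum response factor, in Egr2, and to the cyclic AMP response element TGACGTCA in Dusp1. Dusp6 has no match to any motif searched.
Egr2 (GRCm38.p6, chr10:67537316-67537565, plus strand): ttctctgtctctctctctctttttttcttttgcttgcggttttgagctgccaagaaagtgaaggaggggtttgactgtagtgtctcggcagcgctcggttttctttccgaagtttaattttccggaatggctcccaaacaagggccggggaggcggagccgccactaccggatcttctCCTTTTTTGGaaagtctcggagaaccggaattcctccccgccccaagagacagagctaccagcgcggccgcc
Dusp1 (GRCm38.p6, chr17:26508520-26508722, minus strand): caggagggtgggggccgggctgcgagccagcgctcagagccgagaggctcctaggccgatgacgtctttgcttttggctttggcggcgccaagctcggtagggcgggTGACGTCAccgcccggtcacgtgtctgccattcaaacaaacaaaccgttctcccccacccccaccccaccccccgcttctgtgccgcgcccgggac
Dusp6 (GRCm38.p6, chr10:99262981-99263230, plus strand): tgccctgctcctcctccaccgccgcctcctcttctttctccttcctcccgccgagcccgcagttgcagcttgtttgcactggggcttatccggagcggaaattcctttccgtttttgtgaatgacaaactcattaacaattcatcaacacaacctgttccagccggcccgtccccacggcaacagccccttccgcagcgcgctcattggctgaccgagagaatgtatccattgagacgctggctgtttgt

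The Egr2 match lies 72 to 63 bases before this one of its 5 annotated starts, and the Dusp1 match 143 to 136 bases before the start. Both strands were searched, and a gene counted when any of its starts had a match. A gene with more annotated starts thus had more windows to match in, and members outside the 32 were not searched. The CArG box was found in 4 of the 32 members (12.5%), Egr2, Srf, Zfp36 and Dusp5, against 1.62% of all 27025 genes in the table. TGACGTCA was also found in 4, Dusp1, Btg2, Maff and Errfi1, against 1.77% of all genes. The Egr site GCGNGGGCG was found in 11 members (34.4%, against 5.33% of all genes), and the AP-1 site TGANTCA in 1, Zfp36l1 (3.12%, against 7.82%). None of the 4 motifs contains another, and a match is a string of letters, not a bound site. Members with the same match lay on both sides of equality: the log2 ratios of the CArG box genes were 1.42 for Egr2, 0.48 for Zfp36, -0.64 for Srf and -0.81 for Dusp5, and those of the TGACGTCA genes were 0.91 for Errfi1, 0.06 for Maff, -0.23 for Btg2 and -1.02 for Dusp1.

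The Fos family, whose proteins need a Jun partner to bind DNA, was present mainly as Fosl1 and Fosl2. Fosl2 stood at 91.9 FPKM in null cells (7101 reads) and 57.5 in heterozygous cells (5384 reads), 1.60-fold higher in the null library with a counting interval of 1.54 to 1.66. Fosl1 was nearly level, at 65.7 in null and 70.4 in heterozygous cells. Fos itself, the prototype of the family and usually the shortest-lived of its mRNAs, stood at 28.5 in null cells and 16.8 in heterozygous cells, from 616 null and 440 heterozygous reads. This is a 1.697-fold difference (interval 1.499 to 1.92), inside the 2-fold mark. Fosb was low, at 2.195 in null and 2.84 in heterozygous cells. The highest FPKM of the family belonged to Fosl2 in the null library, at 48.8% of the family's sum, and to Fosl1 in the heterozygote library, at 47.7%. At the longest annotated transcript Fosl1 led in null cells too, at 60.1 against 54.9 for Fosl2. Exons of Fosl1 share 1163 of their 2033 annotated bases with Ccdc85b on the opposite strand, and the library kit named in the labels does not mark strand, so reads of the pair cannot be told apart there. Ccdc85b stood at 163 in null and 175 in heterozygous cells. The same limit holds for 9 other members, Jun, Junb, Jund, Phlda1, Zfp36, Zfp36l1, Dusp1, Dusp5 and Spry1, and the shared part differed widely. It was 55.9% of exon bases in Zfp36l1, 52.6% in Jund, 33.0% in Phlda1, 24.4% in Spry1 and 22.1% in Dusp5, whose partner has no value here. It was 7.52% in Junb (with Prdx2), 7.28% in Jun, 3.60% in Zfp36 and 0.332% in Dusp1 (with Ergic1). The partner's level differed as well. It was listed at 0 in both libraries for Jund and Phlda1, and at 0.196 in null and 0.0692 in heterozygous cells for Zfp36l1. The partner of Jun was at 4.12 in null and 3.83 in heterozygous cells, and that of Zfp36 at 1.07 in null and 1.33 in heterozygous cells. Prdx2 stood at 212 in null and 268 in heterozygous cells, and Ergic1 at 163 in null and 204 in heterozygous cells.

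Among the Jun genes, which encode the indispensable partners in AP-1, Junb led both libraries. It is often described as a weaker activator than Jun that can oppose it. Its FPKM of 258 in null and 222 in heterozygous cells was the highest of all 41 members. Jun was lower, at 51.1 in null cells (3223 reads) against 78.8 in heterozygous cells (6027 reads), with a 1.54-fold difference and an interval of 1.48 to 1.61. Jund, a constitutively expressed relative, was at 12.4 in null and 8.62 in heterozygous cells. The 7 Fos and Jun genes together summed to an FPKM of 510 in null and 457 in heterozygous cells. Within the AP-1 genes, therefore, the values of Fos and Fosl2 were higher and that of Jun lower in the null library, each within 2-fold.

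All 3 Egr genes, zinc finger factors induced through serum response factor, had their higher value in the null library. Egr2 showed the widest gap, at an FPKM of 5.59 in null cells and 1.47 in heterozygous cells, from 173 null and 55 heterozygous reads. The fold was 3.81 with an interval of 2.80 to 5.26, and the log2 ratio was 1.42. Egr3 stood at 8.55 in null and 4.67 in heterozygous cells (1.83-fold, interval 1.57 to 2.14), within 2-fold on the log2 scale used. Egr1, the most abundant of them, was at 72.3 in null and 52.4 in heterozygous cells, from 5377 null and 4727 heterozygous reads, a 1.38-fold difference (interval 1.33 to 1.43). Egr1 held 83.6% of the family's summed FPKM in null cells and 89.5% in heterozygous cells, so the wide gap was in a minor member.

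The orphan nuclear receptors of the Nr4a family, which act as transcription factors without a known obligate ligand, differed little. Nr4a1 had 34.7 in null cells and 25.7 in heterozygous cells (1.35-fold, interval 1.23 to 1.495). For Nr4a2 the values were 12.5 in null and 11.7 in heterozygous cells, and its interval of 0.947 to 1.19 includes equality. Nr4a3 was the member below the expression filter, at 0.358 in null and 0.399 in heterozygous cells, from 23 null and 31 heterozygous reads. Its interval of 0.501 to 1.59 shows how little these reads say about a difference.

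Of the Krüppel-like factors, Klf4, a zinc finger factor known from mural cells for its part in switching away from the contractile state, was at 98.0 in null cells and 60.2 in heterozygous cells. The fold was 1.63 with an interval of 1.54 to 1.72. Klf6 had 81.2 in null and 62.9 in heterozygous cells, while Klf2, best known from endothelium under flow, had 26.4 in null and 31.0 in heterozygous cells. Klf10, a TGF-beta-inducible factor, was lower in the null library, at 6.66 in null against 11.4 in heterozygous cells (1.72-fold, interval 1.53 to 1.94). The family was therefore divided, with a median log2 ratio of 0.07.

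Serum response factor itself (Srf), which binds the CArG boxes of many members, stood at 28.7 in null cells and 45.2 in heterozygous cells, 1.58-fold lower with an interval of 1.501 to 1.66. Myc, the growth regulator, was at 67.0 in null and 54.7 in heterozygous cells, the stress factor Atf3 at 4.82 in null and 4.14 in heterozygous cells, and the small Maf gene Maff at 47.2 in null and 45.1 in heterozygous cells. The intervals of Atf3 (0.915 to 1.48) and Maff (0.982 to 1.12) include equality. Among the other early regulators, Ier3, a survival factor, had 98.2 in null cells and 80.8 in heterozygous cells, and Ier5 57.9 in null and 44.9 in heterozygous cells. Ier2 gave 68.5 in null and 85.8 in heterozygous cells, and the antiproliferative gene Btg2 25.9 in null and 30.5 in heterozygous cells. Phlda1, a pleckstrin homology domain gene that follows ERK activity in several cell types, was the lowest of this group by ratio, at 43.8 in null cells against 73.0 in heterozygous cells. It was 1.67-fold lower, with an interval of 1.55 to 1.80.

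Both mRNA decay factors, which bind AU-rich elements in short-lived transcripts including those of cytokines and immediate early genes, had the higher value in the null library. Zfp36 was at 40.96 in null cells and 29.1 in heterozygous cells, and Zfp36l1 at 33.0 in null and 18.3 in heterozygous cells, a 1.80-fold difference with an interval of 1.63 to 2.00. Neither was past 2-fold.

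The dual-specificity phosphatases had the lowest median of the role groups. Of 7 genes, 3 were lower in null cells by 2-fold or more (beside 6.88% of all genes), none was higher (beside 6.84%) and 4 lay within 2-fold, with a median log2 ratio of -0.81, and 6 of the 7 had ratios below 0. Their summed FPKM was 230 in null and 376 in heterozygous cells.

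Dusp14, a small phosphatase without the docking domain of the classical MAP kinase phosphatases, was at 10.8 FPKM in null cells (267 reads) and 30.8 in heterozygous cells (927 reads). It was 2.86-fold lower, with a counting interval of 2.497 to 3.30. Dusp6, the cytoplasmic phosphatase specific for ERK, stood at 35.1 in null cells (1180 reads) against 73.7 in heterozygous cells (3000 reads), 2.10-fold lower with an interval of 1.96 to 2.25. Dusp1, the nuclear phosphatase that acts on p38 and JNK and that is itself an immediate early gene, was at 64.1 in null cells (2175 reads) and 131 in heterozygous cells (5385 reads), 2.04-fold lower with an interval of 1.94 to 2.15. The log2 ratios of Dusp6 and Dusp1, -1.05 and -1.02, are just past the 2-fold mark, and their intervals reach inside it.

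Of the other phosphatases, Dusp5, a nuclear ERK phosphatase, was 1.78-fold lower in the null library (27.8 in null against 49.5 in heterozygous cells, interval 1.67 to 1.90). Dusp2, which is best known from lymphocytes, had 8 reads in null and 36 in heterozygous cells, FPKM values of 0.341 in null and 1.26 in heterozygous cells. Its ratio without a pseudocount was 3.71-fold, with a wide interval of 1.697 to 9.25, and its log2 ratio on the scale used was -0.76. Dusp4, a further nuclear phosphatase induced by ERK, was nearly level at 68.5 in null and 72.3 in heterozygous cells, and changed sign when the columns were scaled to an equal sum. Dusp10, which prefers p38 and JNK, was the exception in direction, at 22.9 in null cells and 17.7 in heterozygous cells (1.30-fold higher, interval 1.17 to 1.43). The ERK phosphatases Dusp5 and Dusp6 thus had lower values in the null library, while Dusp4, which also acts on ERK, did not differ by more than 1.5-fold.

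**Figure D2:**
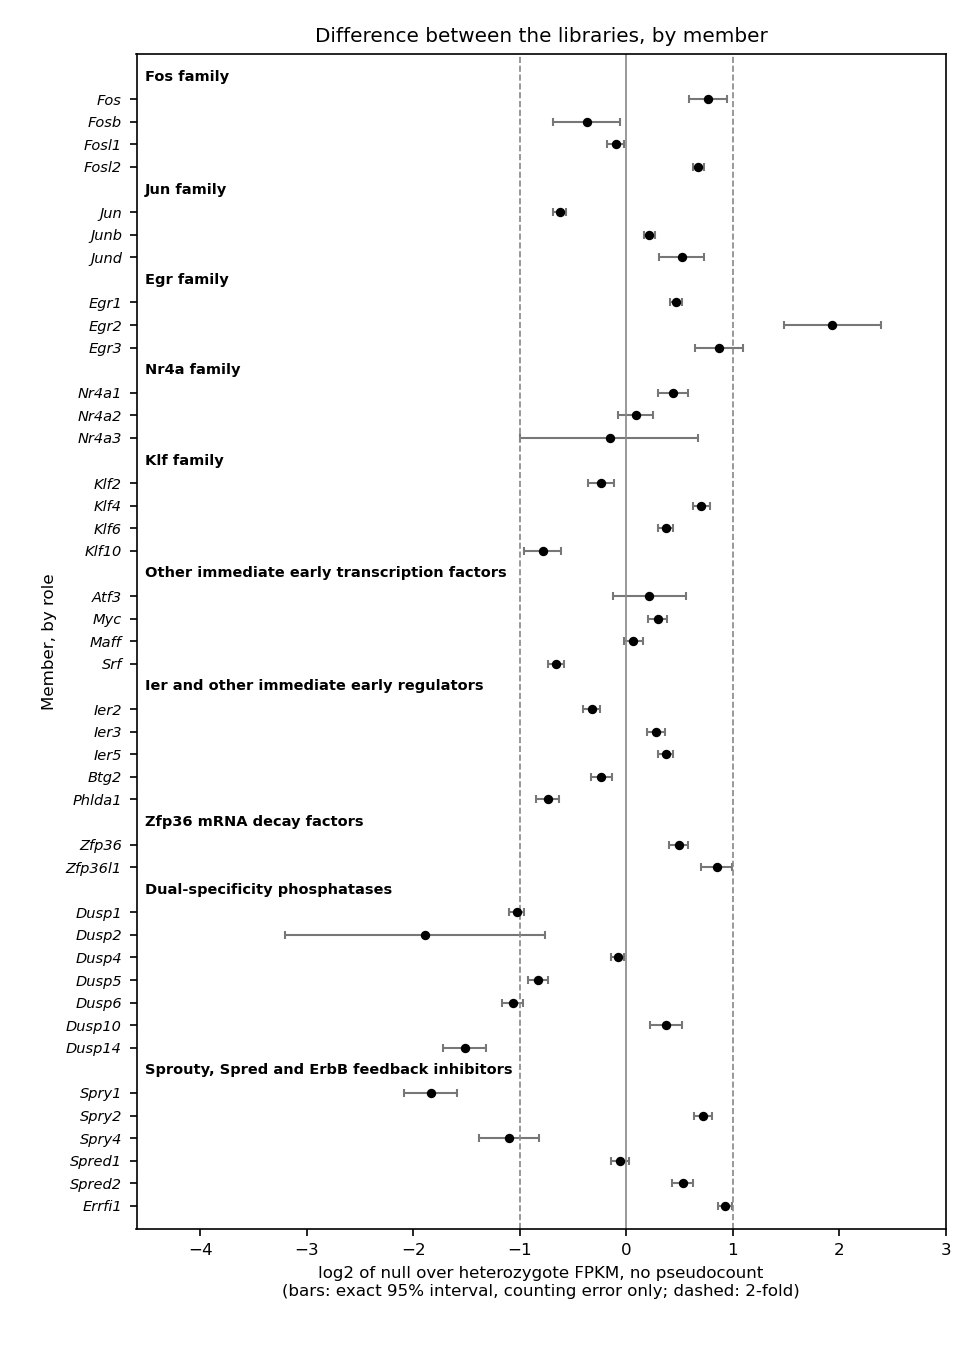
The log2 ratio of null to heterozygote FPKM, without a pseudocount, for each member by role, with exact 95% bars for counting error only and dashed lines at 2-fold. Egr2 lies farthest right and Dusp2 and Spry1 farthest left, the bar of Dusp2 being the widest, and 5 of the 41 bars include equality.

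The receptor-proximal inhibitors went in both directions. Spry1, a Sprouty gene induced by growth factors that limits Ras and ERK activation, was the member with the lowest log2 ratio, -1.57. Its FPKM was 3.25 in null cells (165 reads) and 11.6 in heterozygous cells (713 reads), 3.57-fold lower with an interval of 3.01 to 4.25. Spry4 had the same direction at low levels, 1.58 in null against 3.37 in heterozygous cells from 143 null and 371 heterozygous reads, a ratio of 2.14-fold without a pseudocount (interval 1.76 to 2.61) and -0.76 on the log2 scale used. Spry2, in contrast, was at 68.4 in null cells and 41.5 in heterozygous cells, 1.65-fold higher with an interval of 1.56 to 1.74. It was the most abundant Sprouty in both libraries, so the summed FPKM of the 3 Sprouty genes followed Spry2 and not Spry1. Spry1 shares 710 of its 2906 exon bases with Gm42922 on the opposite strand, which stood at 0.0486 in null cells and was listed at 0 in heterozygous cells.

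Spred1 was nearly level, at 29.0 in null and 30.2 in heterozygous cells, with an interval of 0.908 to 1.02 that includes equality and a sign that turned with columns scaled to an equal sum, and Spred2 was at 33.0 in null cells and 22.8 in heterozygous cells (1.44-fold, interval 1.35 to 1.55). Errfi1, the ErbB receptor inhibitor, was at 118 FPKM in null cells (5139 reads) and 61.9 in heterozygous cells (3279 reads). It was 1.90-fold higher with an interval of 1.82 to 1.99. Of the 6 Sprouty, Spred and Errfi1 genes, 1 was at least 2-fold lower (beside 6.88% of all genes), none higher (beside 6.84%) and 5 within 2-fold. Its summed FPKM was 253 in null and 171 in heterozygous cells, the opposite direction to the phosphatases.

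Taking both feedback groups as 1 class of 13 genes, 4 were lower in null cells by 2-fold or more (30.8%, beside 6.88% of all genes). None was higher (beside 6.84%) and 9 lay within 2-fold, with a median log2 ratio of -0.76. The other 27 compared members had 1 gene higher (3.7%, beside 6.84% of all genes), none lower (beside 6.88%) and a median of 0.28. The division by role came with the choice of genes, earlier results of these data were known then, and with 1 library a genotype the difference between the classes was not tested. The direction was mixed in both classes, since 4 feedback genes had ratios above 0 and 9 of the other members had ratios below 0.

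**Figure D3:**
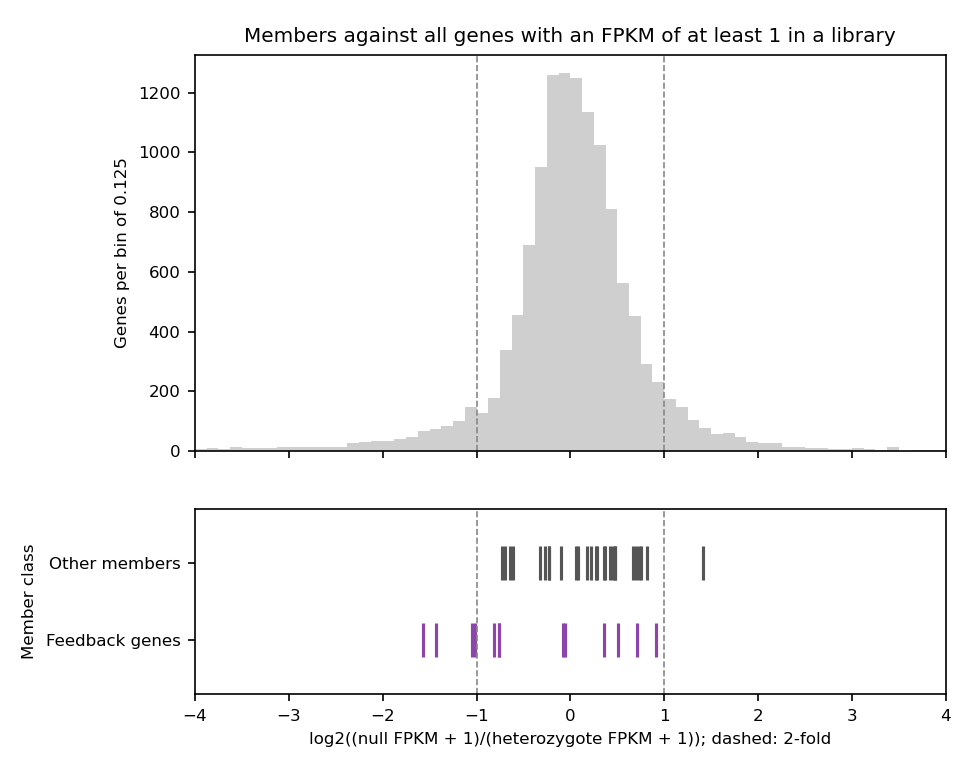
Histogram of the log2 ratio, log2((null FPKM + 1)/(heterozygote FPKM + 1)), over the 12773 genes compared (top, shown from -4 to 4), with the 40 compared members as ticks (bottom) and dashed lines at 2-fold. The 13 feedback genes run from -1.57 to 0.91 and the other 27 members from -0.73 to 1.42.

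The order of levels was broadly shared. Junb was first in both libraries and Dusp2 and Nr4a3 were low in both. At the recovered lengths the largest move was that of Dusp6, which ranked 19 of 41 in null and 6 in heterozygous cells, and 25 members moved by at most 5 places. At the longest annotated transcript it was that of Dusp1, which ranked 14 in null and 2 in heterozygous cells, and Dusp6 ranked 23 in null and 12 in heterozygous cells. Spearman's rho between the libraries over the 41 genes was 0.868, a description across genes that share both libraries. Levels between genes depend on the length in the FPKM. The lengths recovered from the values equalled the rounded mean length of a gene's annotated transcripts for 33 members, annotated partial transcripts included. At the longest annotated transcript, FPKM would be lower by a factor of up to 2.08 (Zfp36l1), or higher for Srf, whose recovered length exceeds its annotated transcripts, and Fos would stand at 14.8 in null cells and 8.70 in heterozygous cells. The ratio without a pseudocount does not depend on that length, but the log2 ratio with a pseudocount does: Egr2 gave 1.15 at the longest transcript in place of 1.42, and Dusp2 came under the filter, leaving 39 members compared.

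Upstream of these genes, most mRNAs of the core cascade lay within 2-fold, and kinase activity was not measured here. Of 18 genes for Ras, Raf, MEK, ERK and their adaptors, 1 was higher by 2-fold or more (beside 6.84% of all genes). None was lower (beside 6.88%) and 17 lay inside that range (beside 86.3%), with a median of 0.21. At a mark of 1.5-fold, 3 were higher (beside 15.8%) and none lower (beside 12.9%). The gene past 2-fold was Ksr1, a scaffold that brings Raf, MEK and ERK together, at 26.0 in null cells and 8.95 in heterozygous cells (2.90-fold). All 5 cofactors of Srf were within 2-fold (beside 86.3% of all genes), with a median of 0.32. Of 12 JNK and p38 pathway kinases, 1 was lower (beside 6.88% of all genes), none higher (beside 6.84%) and 11 lay within 2-fold. The lower one was the stress kinase gene Map3k5 (1.36 in null cells and 5.88 in heterozygous cells), inside 2-fold with a pseudocount of 5. Of 7 compared AP-1 partner genes among 11 listed, 1 was higher (beside 6.84%), none lower (beside 6.88%) and 6 lay within 2-fold. The higher one was the immune-cell AP-1 partner gene Batf3 (2.39 in null and 0.564 in heterozygous cells), at 35 null and 10 heterozygous reads. Batf3 was inside 2-fold with a pseudocount of 5 and at the longest transcript, and a minimum of 5 FPKM left it out.

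Among phosphatases outside the 41 genes, Dusp9, a cytoplasmic ERK phosphatase, was at 0.891 in null cells and 10.6 in heterozygous cells, from 48 null and 691 heterozygous reads. Of the 5 genes of that list, Dusp9 was the 1 at least 2-fold lower (beside 6.88% of all genes), and none was higher (beside 6.84%). The other 4, Dusp3, Dusp7, Dusp8 and Dusp16, lay within 2-fold (beside 86.3%). Dusp3 and Dusp8 had log2 ratios below 0, and Dusp7 and Dusp16 above 0. Dusp7 stood at 59.6 in null and 47.8 in heterozygous cells. Spred3 had 26.6 in null cells and 15.8 in heterozygous cells, within 2-fold, and Spry3 was not analysed here.

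Downstream, of 8 genes often read as outputs of ERK, 2 were at least 2-fold lower (beside 6.88% of all genes), none higher (beside 6.84%) and 6 within 2-fold, with a median of -0.46. Among those within 2-fold, the Ets factor genes Etv1 and Ets2 had log2 ratios above 0, at 0.54 and 0.34. Epha4 (2.84 in null and 6.07 in heterozygous cells) also passed the 2-fold mark with a pseudocount of 0.1 or none, making 3 lower. Epha2, an ephrin receptor, was at 32.7 in null and 145 in heterozygous cells (4.42-fold lower), and Etv4, an Ets factor, at 62.0 in null and 133 in heterozygous cells (2.14-fold lower), whereas its relative Etv5 was at 25.3 in null and 26.5 in heterozygous cells. Of 13 compared genes among 14 reported as AP-1 targets, 2 were higher (beside 6.84% of all genes) and 3 lower (beside 6.88%). Another 8 lay within 2-fold, and the median was -0.64. The lower ones were the ErbB ligands Ereg (3.51 in null cells and 11.3 in heterozygous cells) and Hbegf (15.04 in null and 33.0 in heterozygous cells) and the urokinase receptor gene Plaur (75.4 in null and 156 in heterozygous cells). The higher ones were the stromelysin gene Mmp3 (5.67 in null and 1.97 in heterozygous cells) and the haem oxygenase gene Hmox1 (307 in null and 149 in heterozygous cells). These counts depend on the pseudocount. With a pseudocount of 0.1 or none, 2 of the 13 were higher and 6 lower. With a pseudocount of 5, 1 was higher and 1 lower.

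A wider list of 27 other immediate early genes split both ways, with a median of 0.04. On the scale used, 7 were at least 2-fold higher (beside 6.84% of all genes), 4 lower (beside 6.88%) and 16 within 2-fold. A pseudocount of 0.1 or none gave 8 higher and 5 lower, and a pseudocount of 5 gave 5 higher and 3 lower. Columns scaled to an equal sum gave 8 higher and 3 lower. By ratio the top 3 were the NF-kappaB cofactor gene Nfkbiz (46.7 in null cells and 11.9 in heterozygous cells), the kinase gene Sgk1 (424 in null and 126 in heterozygous cells) and the C/EBP factor gene Cebpb (144 in null and 42.6 in heterozygous cells). The lowest 3 were Id1, an inhibitor of basic helix-loop-helix factors (27.0 in null and 137 in heterozygous cells), and the matricellular genes Ccn2 (79.7 in null and 278 in heterozygous cells) and Ccn1 (188 in null and 496 in heterozygous cells). All 6 heat shock genes lay within 2-fold (beside 86.3% of all genes), with a median of -0.25. At a mark of 1.5-fold, 2 of them were lower (beside 12.9% of all genes) and none higher (beside 15.8%). Whether handling differed between the cultures was not tested. Hspa1a and Hspa1b are near-identical, so the division of reads between them is uncertain. These lists were drawn up with earlier results of these data known, and their counts are descriptions.

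**Figure D4:**
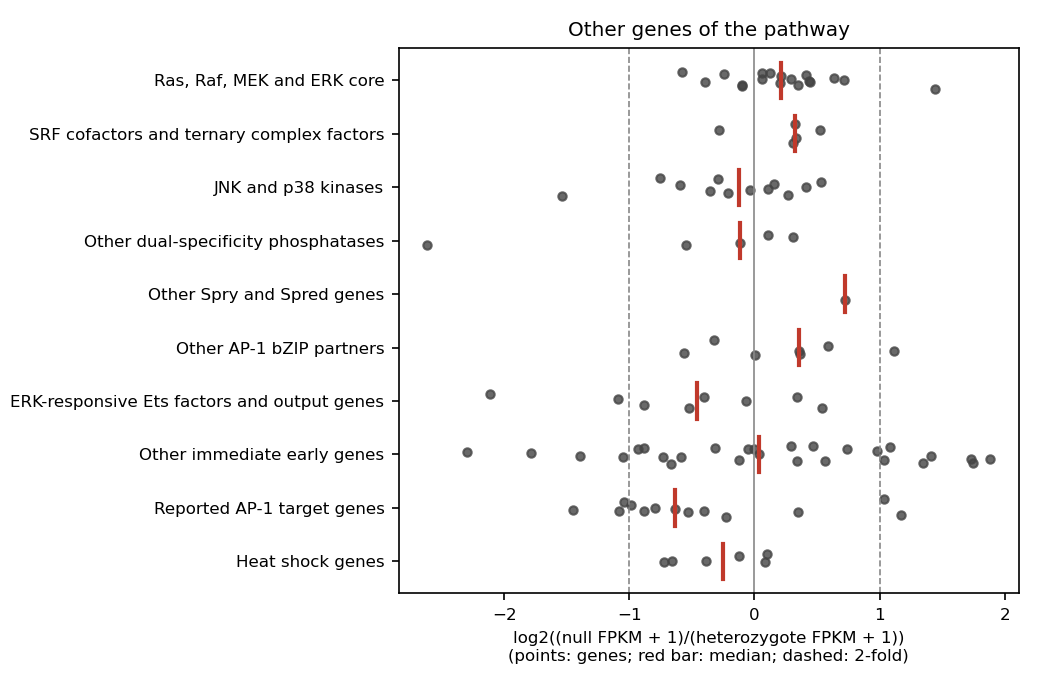
The log2 ratio, log2((null FPKM + 1)/(heterozygote FPKM + 1)), of genes in the other lists of the pathway (points), with the median of each list as a red bar and dashed lines at 2-fold. The list of 27 other immediate early genes spreads widest to the right, and the core kinases centre on a median of 0.21.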

How the data were processed

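Per the labels' protocols, cells were sorted, RNA was extracted with Trizol and libraries were made from total RNA with an Illumina TruSeq kit. The authors deposited FPKM values for 52636 Ensembl gene IDs in 1 table, 1 column per library. Bowtie2 (2.2.3) and build mm8 are named in the submitters' processing notes, and the counter and annotation are not stated in the sources used here. IDs were matched to gene symbols with a GENCODE M21 table (52403 matched), keeping the row with the highest mean where a symbol repeated. This annotation is of another build (GRCm38) than mm8, so it gave names, lengths, strand and exon overlap only, and the promoter sequences are RefSeq's (GRCm38.p6).

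Library totals were the commonest total implied by values near 1 read in genes with 1 annotated transcript, shared by 1648 of 1667 such values in the null and 1508 of 1542 in the heterozygote library. For each gene the smallest length giving whole reads in both libraries (relative tolerance 1e-09) was sought, and its multiple at or within 1% of the rounded mean transcript length was taken. Where no multiple came that near, the smallest length itself was kept. Whole reads were found for 23040 of 23043 gene IDs above 0, and the length equalled the rounded mean for 20622 of them (89.49% of those above 0). The reads summed to 98.9% of the total in each library. Of the 41 genes, 33 matched the mean length, and for Nr4a1 a multiple of its reads cannot be told apart. Genes with 1 FPKM or more in either library were compared after adding a pseudocount of 1, and differences of 2-fold were counted. Fold intervals are exact (Clopper-Pearson on the share of reads). A low gene's log2 ratio understates its difference. No count model or test was run, because each genotype had 1 library. All 41 genes are accounted for, and up to 3 genes past 2-fold in each direction were named from each other list, with a few within 2-fold added after their values were seen. The 41 genes and all lists were chosen with earlier results of these data known. Scripts were checked on simulated data. Python 3.11.15, numpy 2.4.6, pandas 2.3.3 and scipy 1.17.1 were used.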

Additional observations from a re-analysis of the deposited data

How the results depend on the processing

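No paired analysis was possible because each genotype had 1 library. The median log2 ratio of the compared members (40) was 0.13 and stayed between 0.08 and 0.25 over all alternatives run. The count at least 2-fold higher (1) and lower (4) became 0 and 2 with a pseudocount of 5 and 2 and 2 once both columns had an equal sum. At a 1.5-fold mark the counts were 8 and 11, and at a 4-fold mark 0 and 0. They were 1 and 6 with a pseudocount of 0.1 and with none, when Dusp2 and Spry4 joined the lower genes, and 1 and 4 with equal upper quartiles, without a filter, under a minimum of 5 FPKM and at the longest transcript length. The last alternative and the one without a pseudocount were chosen after seeing the data. Dusp4 and Spred1 changed sign with equal sums. No gene past 2-fold changed sign under any alternative run. Depth limits Dusp2, Nr4a3 and Egr2, each with fewer than 100 reads in at least 1 library.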
